A study of Mus musculus with 24 samples.

Results

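The 10 genes described here form the hepatic lipogenesis set: Acly, Me1, Acaca, Acacb, Fasn, Elovl6, Scd1, Srebf1, Thrsp and Pnpla3. They were taken by gene symbol from the 24411 genes counted in each of 24 mouse liver RNA-seq libraries. The set was chosen by the Thrsp counts, which were lower in livers of hepatocyte knockouts than in their controls, so that comparison describes the members and tests none of them.

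De novo lipogenesis turns citrate exported from mitochondria into fatty acid. ATP citrate lyase (Acly) makes cytosolic acetyl-CoA, acetyl-CoA carboxylase makes malonyl-CoA, and fatty acid synthase (Fasn) builds palmitate from both with NADPH that malic enzyme (Me1) helps to supply. Elovl6 lengthens palmitate to stearate and Scd1 introduces a double bond. In liver the pathway is known to be high after feeding and low during fasting, under the transcription factors SREBP-1 (encoded by Srebf1), ChREBP (encoded by Mlxipl) and LXR.

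The study examined livers with E2f7 and E2f8 deleted, a pair of atypical E2F repressors, before and after an overdose of acetaminophen (APAP). All mice were male, 2.5 months old and fasted overnight, and all carried floxed E2f7 and E2f8 alleles and the R26R mTmG reporter. In the first cohort, adult mice had received AAV8-TBG-Cre (HKO), a virus whose TBG promoter is active in hepatocytes, or AAV8-TBG-Null as control, and livers were taken at 0 h from 3 mice of each kind. In the second cohort, LKO mice carried Alb-Cre, which acts in the liver lineage from development on. Their controls, labelled WT, were littermates without Cre. The methods describe this line as R26R mTmG/mTmG on a mixed, predominantly FVB background, and state no separate background for the first cohort. Of the second cohort, 4 LKO and 4 control mice were sequenced singly at 0 h. At 12, 24, 48, 72 and 96 h after 300 mg/kg APAP, given intraperitoneally, 1 library was made for each genotype from the pooled RNA of 3 mice. A pool gives no spread between its mice, so a difference at a single time has no replicate check.

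Reads assigned to genes numbered 12665686 to 19499897 per library, with a median of 16500386, and 3 reads corresponded to between 0.154 and 0.237 CPM (counts scaled to the size of the library). Counts of the targeted gene do not check the deletion, because they cover the whole gene rather than the floxed exons. E2f8 was at 14.8 to 26.3 CPM in AAV8-TBG-Null livers and higher, at 30.6 to 83.4 CPM, in HKO livers. It was at 11.8 to 18.9 CPM in control and 18.0 to 34.1 CPM in LKO mice at 0 h, and in the comparison of pools over 12 to 96 h it was called higher in LKO livers (log2 fold change 1.53, adjusted p = 0.0237). E2f7 stayed at or under 1.33 CPM in all libraries at 0 h. HKO and LKO are used here as the names the labels give. Hepatocyte markers were abundant in all libraries, with 8 genes summing to between 57900 and 152400 CPM. Among 8 adipocyte markers, Car3 is also made by hepatocytes; the other 7, of which Cidea is also a lipid droplet gene, summed to 22.0 CPM in the control pool at 24 h and to no more than 4.22 CPM in any other library. In whole liver, fewer cells of a type and less RNA per cell cannot be told apart.

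The 250 bases before the RefSeq start of Fasn and Acacb are shown because these were the 2 members that passed the test between LKO and control livers after APAP, described further on. Capitals mark E2F motifs (TTTGGCGC, TTTCGCGC, TTTCCCGC or TTTGCCGC) and CCAAT boxes, searched on both strands. Both windows are on build GRCm38.p6, at chr11:120824548-120824797 on the minus strand and chr5:114165268-114165517 on the plus strand, each read 5′ to 3′ along its gene.
Fasn: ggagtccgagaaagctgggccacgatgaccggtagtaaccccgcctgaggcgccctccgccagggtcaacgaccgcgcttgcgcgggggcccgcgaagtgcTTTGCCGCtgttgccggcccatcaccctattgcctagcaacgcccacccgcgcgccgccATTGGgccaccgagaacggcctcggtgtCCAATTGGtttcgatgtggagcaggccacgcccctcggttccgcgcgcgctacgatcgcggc
Acacb: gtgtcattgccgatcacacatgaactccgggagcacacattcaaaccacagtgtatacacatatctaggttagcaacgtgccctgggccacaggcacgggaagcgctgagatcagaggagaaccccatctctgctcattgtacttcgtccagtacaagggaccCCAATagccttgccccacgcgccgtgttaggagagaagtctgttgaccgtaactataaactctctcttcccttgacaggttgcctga
The Acacb window precedes an internal start of the gene, which the GENCODE annotation opens further upstream at position 114146535. Fasn held 1 E2F motif, starting 149 bases before the start, and 3 CCAAT matches at 90, 62 and 59 bases, the last pair overlapping. Acacb held 1 CCAAT box, 87 bases before the start. Windows were found for 9 of the 10 members, without Scd1. Me1 had 2, Srebf1 3 and the others 1 each, 12 in all. That of Acaca, at chr11:84195188-84195437, also precedes an internal start, in a gene annotated from position 84129672. Further windows of Me1 and Srebf1 lie inside their genes too.

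Across these 12 windows, the E2F motif was found in 1, that of Fasn, against 1.86% of the 32851 windows of the same length in the genome. CCAAT boxes were found in 7 of the 12 (of Acacb, Fasn, Me1, Pnpla3, Srebf1 and Thrsp), against 33.8% of all windows, and the GC box GGGCGG in 5, against 32.7%. A sterol response element of the form TCACNCCAC, held by 1.05% of windows, and the E-box CACGTG, held by 6.02%, were in none of the 12. These are matches of letters in 1 window per start and say nothing of binding.

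Before APAP, levels per transcript length (RPKM, CPM per kilobase of exon) set the members in a wide order. Over the 8 single mice of the second cohort, Scd1, the delta-9 desaturase, had a median of 483.8 RPKM (194.0 to 830.6). Thrsp, which encodes the small thyroid hormone responsive protein Spot 14, followed at 188.4 RPKM (44.9 to 292.6), and Srebf1 at 54.6 RPKM (26.8 to 104.4). Acly, Me1 and Fasn lay close together, with medians of 29.7, 24.6 and 23.0 RPKM. Elovl6 (7.89 RPKM), Acaca (4.77 RPKM) and Acacb (3.51 RPKM) were lower still. The lipid droplet protein gene Pnpla3, at 0.300 RPKM and 2 to 22 reads per mouse, was near the limit of counting. Neighbours in this order overlapped over the 8 mice except at 2 steps, between Fasn and Elovl6 and between Acacb and Pnpla3.

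The members also differed in how far single mice of 1 group stood apart. In the second cohort Acly had the smallest coefficient of variation of the members, at 134 to 178 CPM in controls and 140 to 170 CPM in LKO mice. Thrsp in LKO mice was at 381, 98.3, 371 and 469 CPM, so 1 mouse was far under the other three. Me1 in controls was at 106, 44.1, 28.4 and 138 CPM, a 4.85-fold range, and Scd1 in controls was at 2972, 949, 1086 and 4063 CPM. One control mouse held the highest Fasn (372 CPM) and Srebf1 (588 CPM) values of its group.

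**Figure D1:**
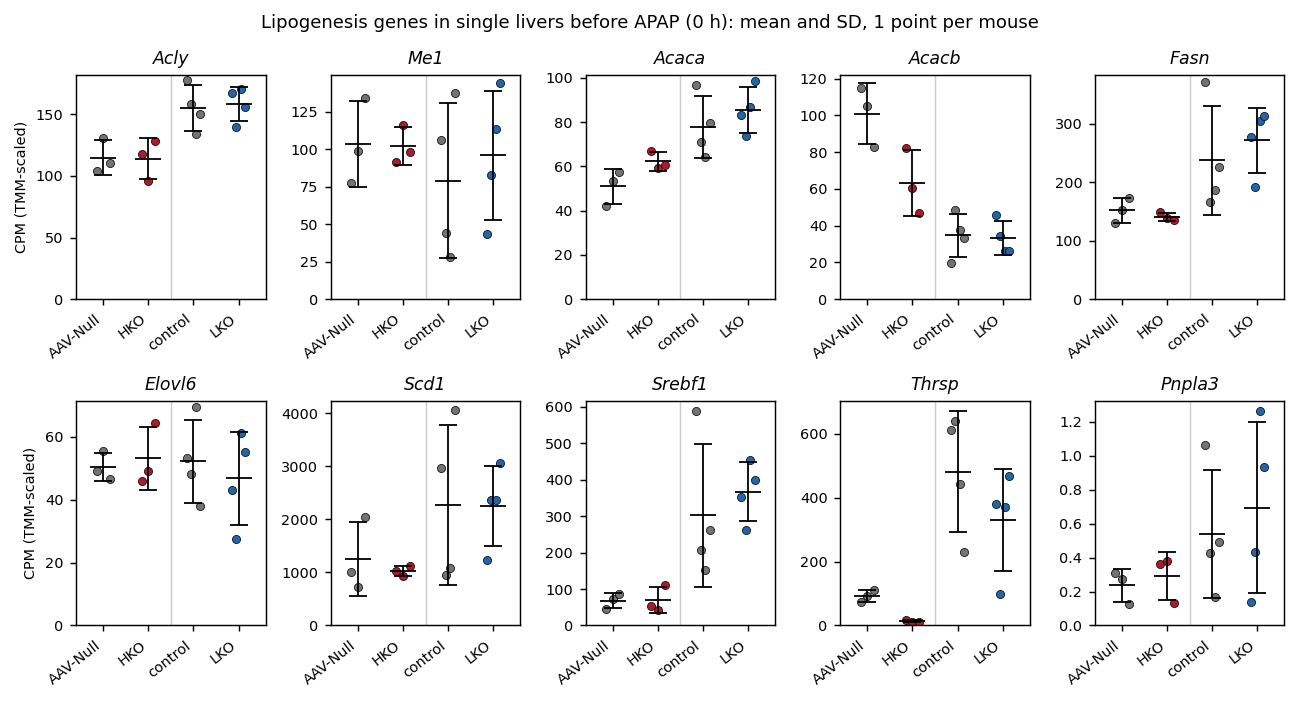
Each panel plots CPM (linear axis from 0) of 1 gene at 0 h, with 1 point per mouse and the mean and SD in black, for AAV8-TBG-Null (n = 3), HKO (n = 3), control (n = 4) and LKO (n = 4) livers. Thrsp in HKO livers (11.5 to 16.0 CPM) lies under all other mice, and LKO and control points overlap in all 10 panels.

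In HKO against AAV8-TBG-Null livers, the comparison that chose the set, Thrsp was at 16.0, 12.3 and 11.5 CPM in the 3 HKO mice and at 72.9, 93.6 and 111 CPM in the 3 controls. The groups did not overlap, and the fitted log2 fold change was -2.80 (SE 0.18), a level 0.144 times that of the controls. Shares of unmapped reads did not overlap either, at 8.95% to 12.5% in the control and 5.72% to 7.25% in the HKO libraries. Their part in the difference was not tested. Of the 9 members that passed the filter on low counts, 1, Thrsp itself, was past the limits used to call genes (adjusted p under 0.05 and at least 1.5-fold), beside 0.960% of the 12397 genes (0.419% higher and 0.540% lower). That count is no test, since this contrast and this gene chose the set.

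Acaca and Acacb encode the carboxylases. Acacb, the mitochondrial isoform whose malonyl-CoA restrains fatty acid entry into mitochondria, was at 82.3, 60.3 and 47.1 CPM in HKO mice and at 115, 105 and 82.6 CPM in controls. The nearest mice of the 2 groups were 82.3 and 82.6 CPM, and the log2 fold change was -0.67 (SE 0.20). Acaca, the cytosolic isoform that serves synthesis, was at 67.0, 59.3 and 60.4 CPM in HKO mice and at 42.3, 53.2 and 57.5 CPM in controls (log2 fold change 0.29, SE 0.13). Groups without overlap in the higher direction made up 8.73% of all genes tested, and in the lower direction 9.27%, so 1 further member on each side is about the share of all genes.

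The other members overlapped between HKO and control livers. Fasn was at 148, 139 and 135 CPM in HKO mice and at 131, 152 and 173 CPM in controls (log2 fold change -0.11, SE 0.11). Fitted log2 fold changes were -0.01 (SE 0.13) for Acly, -0.02 (SE 0.19) for Me1 and 0.08 (SE 0.14) for Elovl6. For Scd1 and Srebf1 they were -0.29 (SE 0.32) and 0.01 (SE 0.34). Pnpla3, at 2 to 6 reads in each of the 6 libraries, was not tested. Mid1ip1, the paralogue of Thrsp, was at 13.0, 6.62 and 12.9 CPM in HKO mice and at 8.77, 10.9 and 18.1 CPM in controls, which overlapped.

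Among the fixed lists of related genes in this comparison, no gene was called among 14 that supply precursors and NADPH, 14 of SREBP and LXR control, 19 tested genes of triglyceride synthesis and lipid droplets, and 15 fasting-induced genes. Of 11 tested elongases and desaturases, Elovl3 alone was called, higher in HKO by 1.09 on the log2 scale. Of 15 clock genes in the same comparison, 1 was called higher (Arntl, log2 fold change 2.24) and 5 lower, among them Dbp (-2.70), Per3 (-2.40), Per2 (-1.66) and Tef (-1.18). Dbp was at 25.0, 6.17 and 10.9 CPM in HKO mice and at 95.1, 105 and 75.3 CPM in controls. The part of the clock genes in the Thrsp difference was not tested.

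The LKO cohort at 0 h gave an independent look at Thrsp, in mice that the choice of the set did not use. Thrsp was at 611, 641, 444 and 230 CPM in controls against the LKO values given above, with overlap. Its log2 fold change was -0.55 (95% interval -1.49 to 0.40), with an adjusted p of 0.999 by edgeR's quasi-likelihood test. The difference between the 2 cohorts' effects was not tested. In this comparison 0.00% of the 12426 genes were called by edgeR, 352 genes had an unadjusted p under 0.05, and DESeq2 called 3.

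The remaining members gave no called difference between LKO and control mice at 0 h either. Log2 fold changes ran from -0.16 for Elovl6 (interval -0.71 to 0.39) to 0.28 for Srebf1 (-0.51 to 1.08), with adjusted p of 0.999 for each of the 9 tested members. The narrowest interval, for Acly, was -0.24 to 0.31, whereas those of Me1 (-0.76 to 1.32) and Scd1 (-0.97 to 0.98) would hold a 1.5-fold difference either way. Over the 9 members the median log2 fold change was 0.03, and over all genes tested it was -0.00. All 10 members overlapped between LKO and control mice, and groups without overlap made up 1.18% of all genes in the higher direction and 0.563% in the lower.

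The AAV8-TBG-Null controls and the controls of the LKO cohort, both fasted and untreated, differed in several members. Thrsp, at 72.9 to 111 CPM in AAV8-TBG-Null livers, was at 230 to 641 CPM in the others. Srebf1 was at 46.4 to 87.1 CPM against 151 to 588 CPM. Acly and Acaca were also lower without overlap, and Acacb was higher, at 82.6 to 115 CPM against 19.8 to 48.3 CPM. Without overlap in this comparison were 12.7% of 14501 genes in the lower direction and 11.9% in the higher. The sum of 15 fasting-induced genes was at 22690 to 25600 CPM in AAV8-TBG-Null livers and at 11370 to 13130 CPM in the LKO cohort's controls. Reads that fell in no gene made up 12.6% to 14.6% in AAV8-TBG-Null libraries and 8.85% to 9.67% in those of the LKO cohort's controls. Their part in these differences was not tested. The virus and the cohort cannot be told apart here.

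After APAP, members that passed the test against 0 h were mostly lower, and did so within the first day. At 12 h Acacb was higher and Thrsp lower, at 24 h Scd1, Thrsp and Acaca were lower, at 48 and 72 h none did, and at 96 h all 10 lay on the higher side without passing it. Called were 2 of 10 members at 12 h and 3 of 10 at 24 h, near the 31.0% and 25.6% of all genes called. These tests compared the 2 pools of a time with the 8 mice at 0 h, which all 5 times share, and each pool averages 3 mice.

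**Figure D2:**
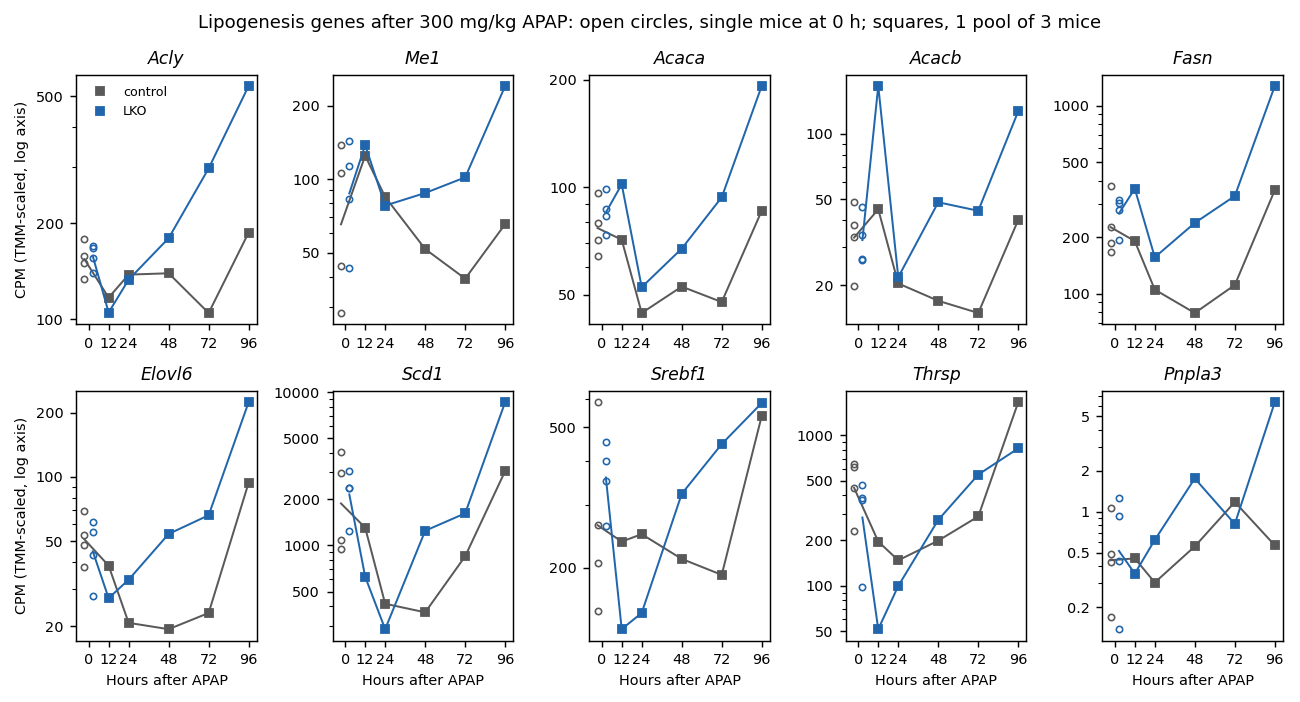
CPM (log axis) of each member against hours after APAP, for control (grey) and LKO (blue) livers. Open circles are single mice at 0 h, squares are pools of 3 mice, and lines join the geometric mean at 0 h with the pools; for 9 members the LKO square at 96 h lies above all 8 mice at 0 h.

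At 12 h, 2 of 10 members were called, with 31.0% of 13855 genes called, 16.7% higher and 14.3% lower. Acacb rose by 1.45 on the log2 scale (SE 0.39, adjusted p = 0.00946), a difference that rested on 1 pool: it was at 167 CPM in the LKO pool and 44.8 CPM in the control pool, against 19.8 to 48.3 CPM in the 8 mice. Thrsp fell by 1.77 on the log2 scale (SE 0.57, adjusted p = 0.0228), to 197 CPM in the control pool and 51.5 CPM in the LKO pool. The LKO value was under all 8 mice and the control value was within their range. Without the LKO pool at 12 h neither gene was called.

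At 24 h, 3 of 10 were called, all lower, with 25.6% of all genes called, 13.9% higher and 11.7% lower, and all 10 log2 fold changes were negative. Scd1 fell by 2.67 on the log2 scale (SE 0.65, adjusted p = 0.00603), from 949 to 4063 CPM in the 8 mice to 416 CPM in the control pool and 284 CPM in the LKO pool. Thrsp fell by 1.72 (SE 0.56, adjusted p = 0.0302), at 148 and 99.8 CPM in the control and LKO pools, both within the range of the 8 mice (98.3 to 641 CPM). Acaca fell by 0.77 (SE 0.22, adjusted p = 0.0159), at 44.5 and 52.6 CPM. The median log2 fold change of the members was -0.75, and that of all genes was -0.00.

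Fasn at 24 h was at 105 CPM in the control pool and 156 CPM in the LKO pool, under all 8 mice in both, with a log2 fold change of -1.02 (adjusted p = 0.0532). DESeq2 called 5 members at this time, adding Fasn and Elovl6. Leaving out the control pool left Scd1 as the only member called, and leaving out the LKO pool left none; leaving out LKO mouse 2, the mouse with 98.3 CPM of Thrsp, gave 5. The control pool at 24 h was the library with 22.0 CPM of adipocyte markers; the part of these in the member values was not tested.

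At 48 and 72 h no member was called against 0 h by edgeR, with 16.4% of genes called at 48 h (9.89% higher, 6.52% lower) and 16.8% at 72 h (11.0% higher, 5.77% lower). At an unadjusted p under 0.05 there were 4524 and 4473 genes, and DESeq2 called no member at either time. At 48 h the control pool was under all 8 mice at 0 h for 5 members (24.5% of all genes), whereas the LKO pool was under them for none (19.1% of all genes) and above them for 3 (22.2% of all genes). These were Acly, at 179.5 CPM against at most 178.0 CPM in the mice, Acacb, at 48.29 against 48.27 CPM, and Pnpla3, at 31 reads. At 72 h the control pool was under them for 6 members (26.4% of all genes), and again the LKO pool for none (17.0%).

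At 96 h, when 0.462% of genes were called against 0 h (0.332% higher, 0.130% lower), all 10 members had positive log2 fold changes, as did 48.2% of all genes. Their median was 1.20, against -0.02 over all genes. None passed the test, although Fasn (1.45, SE 0.33) and Elovl6 (1.57, SE 0.36) each had an adjusted p of 0.0609 and Acly (1.11, SE 0.27) had 0.0721. DESeq2 called these 3. Fitted in the LKO libraries alone, Acly and Fasn were called, and in the control libraries alone no member was.

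At 96 h the change from the own genotype's mean at 0 h was larger in the LKO pool for 8 members and larger in the control pool for Thrsp and Srebf1 (log2 change 1.01 against 0.68). In the LKO pool, 9 of 10 members were above all 8 mice at 0 h (16.7% of all genes) and 9 were at least 2-fold above the LKO mean at 0 h (4.38% of all genes). In the control pool 3 members, Acly, Elovl6 and Thrsp, were above all 8 mice (21.3% of all genes). Srebf1 was within the range of the 8 mice in both pools.

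Set against the mean of their own genotype at 0 h, control pools held members at least 2-fold lower up to 72 h and LKO pools up to 24 h, with no test of that difference. In control pools, members at least 2-fold lower numbered 1, 4, 4, 4 and 0 over the 5 times in order, beside 13.7%, 9.41%, 8.54%, 8.08% and 4.91% of all genes. In LKO pools they numbered 3, 3, 0, 0 and 0, beside 11.4%, 8.08%, 4.98%, 2.70% and 2.92%. Members at least 2-fold higher numbered 0, 0, 0, 1 and 2 in control pools, beside 17.5%, 13.8%, 15.7%, 16.6% and 6.79% of genes, and 1, 0, 1, 0 and 9 in LKO pools, beside 11.2%, 9.85%, 8.74%, 10.1% and 4.38%.

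The 15 fasting-induced genes lay on the other side, all with negative log2 fold changes at 96 h and none called. Their sum was 6467 CPM in the control pool and 5733 CPM in the LKO pool, against 10400 to 13130 CPM in the 8 mice. When food was returned after APAP is not given in the sources used here, and the part of feeding was not tested.

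LKO and control livers were compared after APAP over the 5 pairs of pools, with the time as a block. The spread behind this test is that of the difference over the 5 times, not that between mice. Fasn and Acacb were higher in LKO livers and passed the test, 2 of 10 members, with 0.579% of 12782 genes called, 0.250% higher and 0.329% lower. All 7 synthesis enzymes had positive log2 fold changes, with a median of 0.78, and the median over all genes was -0.01.

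Fasn in the control pools was at 190, 105, 78.7, 111 and 356 CPM at 12, 24, 48, 72 and 96 h. In the LKO pools it was at 362, 156, 238, 331 and 1278 CPM. The LKO pool was higher at each of the 5 times, by 1.49-fold at 24 h to 3.59-fold at 96 h. The fitted log2 fold change was 1.28 (SE 0.21, adjusted p = 0.0366 by edgeR's quasi-likelihood test).

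Acacb was at 44.8, 20.3, 16.9, 14.9 and 40.03 CPM in the control pools and at 167, 21.8, 48.3, 44.1 and 127 CPM in the LKO pools. The LKO pool was again higher at each time, but at 24 h by 1.07-fold only. Its fitted log2 fold change was 1.34 (SE 0.24, adjusted p = 0.0450).

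These calls depended on which pool was left out, and the cause was not tested. Leaving out either pool of 12, 48 or 72 h left 0 members called, and leaving out either of 24 h left the count at 2. Without either pool of 96 h Fasn alone was called. DESeq2 called 5 members, adding Me1, Acaca and Elovl6, and without the time block none was called. Fasn kept a positive log2 fold change of 1.15 to 1.48 under all 17 alternatives, and Acacb one of 1.20 to 1.65. Of these 17, 10 left out 1 pool. Leaving out either pool of a time is nearly the same check, since its partner then stands alone in its block.

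**Figure D3:**
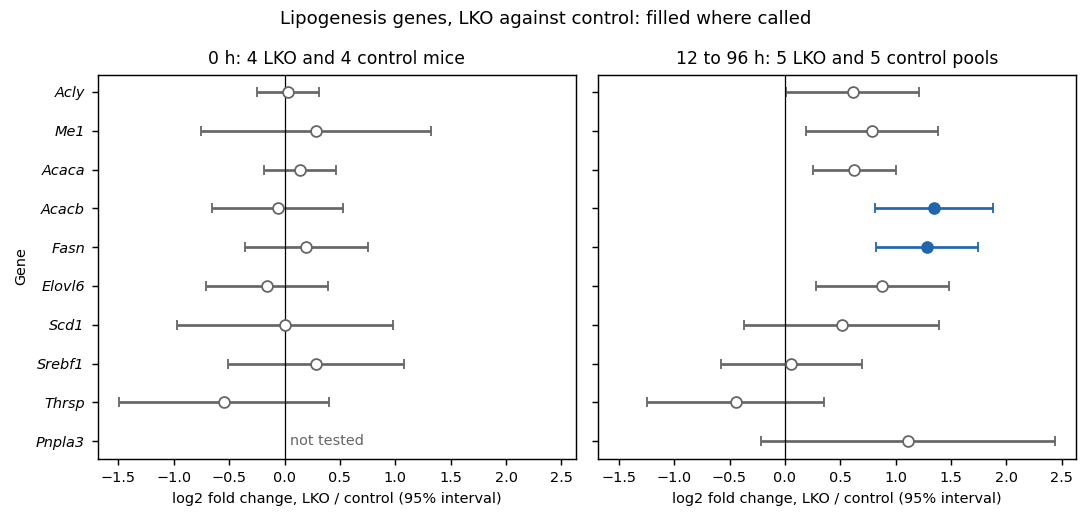
Log2 fold change of LKO over control with its 95% interval for each member tested, at 0 h (left, 4 against 4 mice, Pnpla3 not tested) and over 12 to 96 h (right, 5 against 5 pools with the time as a block). Filled points, Fasn and Acacb, passed the test. Intervals at 0 h cover the spread between mice and all include 0. Those at 12 to 96 h cover how far the difference between pools varied over the times.

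The other synthesis enzymes did not pass. Elovl6 had a log2 fold change of 0.88 (adjusted p = 0.146), Me1 of 0.78 (0.181), Acaca of 0.63 (0.111), Acly of 0.61 (0.271) and Scd1 of 0.51 (0.534). The regulators lay near 0 or on the other side, with 0.06 (0.940) for Srebf1 and -0.44 (0.553) for Thrsp. Pnpla3 had 1.11 (0.351) at low counts.

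Taken by time, more members were higher in the LKO pool from 48 h on, although Fasn (1.903-fold) and Acacb (3.72-fold, its largest ratio of the 5 times) were already higher at 12 h. At 12 and 24 h, 4 and 5 of 10 members were higher in the LKO pool, close to the 47.4% and 52.5% of all genes. At 48 h all 10 were higher, and at 72 and 96 h 9 were, beside 49.3%, 49.3% and 51.0% of all genes. The median log2 ratio of the members was -0.24, 0.03, 1.11, 1.27 and 1.499 at the 5 times.

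**Figure D4:**
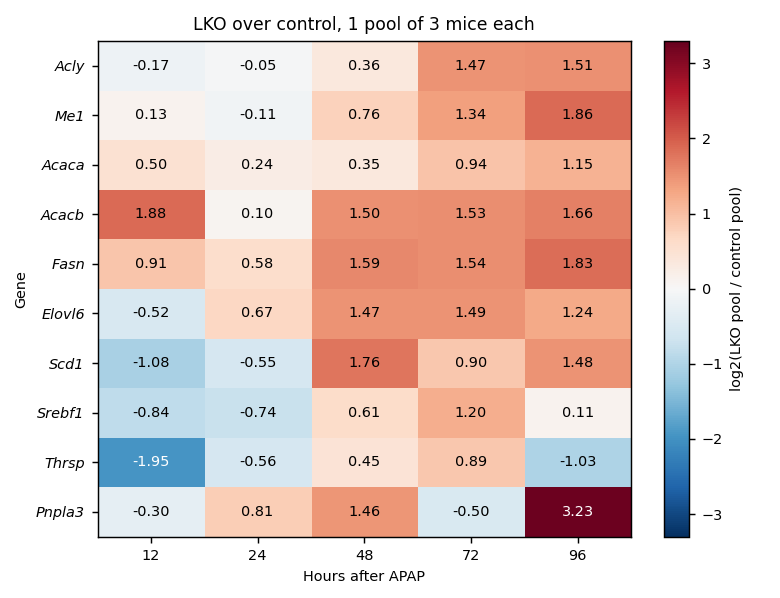
Log2 ratio of the LKO pool over the control pool for each member (rows) and hour after APAP (columns), from 1 library each, in red where LKO was higher. At 48 h all 10 ratios are positive, and at 96 h Thrsp, at -1.03, is the exception.

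At least 2-fold higher in the LKO pool were 5 members at 48 h (7.27% of 14421 genes), 6 at 72 h (6.93%) and 8 at 96 h (6.82%). At 12 h the count was 1, Acacb (9.71% of genes), with Scd1 and Thrsp at least 2-fold lower (13.0%). At 24 h no member differed by 2-fold in either direction (3.68% of genes higher, 5.55% lower). None was 2-fold lower in the LKO pool at 48 h (10.5% of genes) or 72 h (7.66%), and 1, Thrsp, was at 96 h (4.87%). Each of these compares 2 libraries and carries no test.

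Acly, at the entry to the pathway, was at 105 CPM in the control pool and 297 CPM in the LKO pool at 72 h, and at 187 and 538 CPM at 96 h. Both LKO values were above all 8 mice at 0 h (134 to 178 CPM). Me1 was at 39.2 and 102 CPM at 72 h and at 65.5 and 241 CPM at 96 h in control and LKO pools. Acaca was at 86.1 and 192 CPM at 96 h, and the LKO value was again above all 8 mice.

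Further along, Elovl6 was at 19.3 and 54.1 CPM at 48 h, at 23.0 and 66.1 CPM at 72 h and at 94.0 and 224 CPM at 96 h in control and LKO pools. Scd1 was at 366 and 1247 CPM at 48 h and at 3062 and 8618 CPM at 96 h. The control pool of Scd1 at 48 h was under all 8 mice, and the LKO pool at 96 h was above them. Elovl6 and Scd1 thus had the same order of genotypes as Fasn at these times, whereas at 12 h both were lower in the LKO pool.

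Thrsp and Srebf1, like Scd1, were lower in the LKO pool at 12 and 24 h and higher at 48 and 72 h. Thrsp was at 197, 148, 200, 289 and 1659 CPM in the control pools and at 51.5, 99.8, 274, 548 and 818 CPM in the LKO pools. At 96 h it was the one member higher in the control pool, by a log2 ratio of -1.03 for LKO over control, and both pools were above all 8 mice at 0 h. Srebf1 was at 237, 248.6, 212, 191 and 538 CPM in the control pools and at 134, 149, 323, 447 and 585 CPM in the LKO pools, with a log2 ratio of 0.11 at 96 h. No test of a difference in course between members was run.

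Pnpla3 stood at 6.36 CPM (116 reads) in the LKO pool at 96 h and 0.567 CPM (8 reads) in the control pool. In the other 22 libraries it was at 2 to 31 reads. A single pool carries this value.

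Some cell type markers also differed between these pools. Stellate and mesenchymal markers summed to 912 CPM in the control pool and 443 CPM in the LKO pool at 72 h, and cholangiocyte markers to 216 and 87.1 CPM at 48 h. At 96 h the stellate sums were 130.1 and 129.7 CPM and the cholangiocyte sums 21.8 CPM in both, while macrophage markers summed to 378 CPM in the control and 159 CPM in the LKO pool. Neutrophil markers summed to 31.8 and 9.56 CPM at 48 h, 25.9 and 8.47 CPM at 72 h and 8.79 and 2.41 CPM at 96 h, and over 12 to 96 h the 5 tested had negative log2 fold changes with a median of -0.998, beside -1.01 for 5 cholangiocyte markers. The part of these markers in the member differences was not tested. None of the 7 marker lists held a gene called between LKO and control pools.

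Around the members, the pathway lists gave few calls between LKO and control livers after APAP. None of 14 precursor and NADPH genes was called, with Pklr, which makes pyruvate in glycolysis, nearest (log2 fold change 0.91, adjusted p = 0.0579) and Mlxipl at 0.67 (0.0946). None of 14 SREBP and LXR genes, 12 elongases and desaturases, 19 triglyceride and lipid droplet genes or 15 clock genes was called. Of 15 fasting-induced genes, G6pc, the last step of glucose production, was called higher in LKO livers (1.32, SE 0.23, adjusted p = 0.0450).

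Against 0 h, enzymes that make NADPH in the pentose phosphate pathway rose. Pgd rose by 1.71 on the log2 scale at 12 h (adjusted p = 2.79e-06) and was still higher at 96 h (0.90, adjusted p = 0.0364). G6pdx, the first enzyme of the pathway, rose by 2.53 at 24 h (1.37e-06). Mlxipl fell by 2.19 at 24 h (5.11e-05). Of the 14 genes of this list, 3 were called higher and 4 lower at 12 h, and 1 higher and 0 lower at 96 h. Markers of other cells also moved against 0 h: of 5 neutrophil markers tested, 3 were called higher at 12 h and 3 at 24 h (median log2 fold changes 1.60 and 2.49), and of 7 stellate and mesenchymal markers, 5 were called higher at 48 h and 7 at 72 h (1.51 and 3.62). Their part in the changes against 0 h, the members included, was not tested.

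Several lipid droplet genes rose at 12 and 24 h. Of 21 tested genes of triglyceride synthesis and lipid droplets, 9 were called higher and 1 lower at 12 h, and 7 higher and 3 lower at 24 h. Cidec, a droplet fusion protein, rose by 5.08 at 12 h (adjusted p = 4.46e-05) and by 5.25 at 24 h (6.01e-05), and Plin2, a droplet coat protein, by 2.59 (9.50e-05) and 3.07 (4.06e-05). At 48 h Cidec was at 426 CPM in the control pool and 3.22 CPM in the LKO pool, so its fitted rise there of 4.65 describes the control pool. At 72 h 0 genes of the list were called higher and 6 lower.

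Elongases other than Elovl6 did not move as 1 group. Elovl7 rose by 4.41 at 24 h (adjusted p = 5.45e-08), whereas Elovl3 fell by 3.36 (0.00325). Scd2, a desaturase that is low in adult hepatocytes, rose by 1.34 at 48 h (0.00152) and 1.89 at 72 h (2.77e-05). Within SREBP and LXR control, 1 of 14 genes was called higher at 12 h, Sik1 (1.41, adjusted p = 0.0271), and 1 lower, Insig1, which fell by 1.36 (0.0217). At 24 h 4 were called lower, among them Lpin1, which fell by 3.42 (0.00230), Ppargc1b, by 1.59 (0.0138), and Scap, by 0.83 (0.00608). Mid1ip1 at 96 h had a log2 fold change of 1.502 (adjusted p = 0.0630), beside 1.55 (0.125) for Thrsp.

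Among the members, patterns over the 18 libraries of the LKO cohort were most alike for Fasn and Acaca, with a Pearson r of 0.959 on log2 CPM. The median r of the 45 pairs was 0.585. Elovl6 had the highest median with the other 9 (0.734) and Acacb the lowest (0.383). Thrsp had its highest r with Elovl6 (0.735) and Srebf1 (0.702), and was near 0 with Me1 (-0.105) and Acacb (-0.0288). Over the 8 mice at 0 h alone, Fasn and Acaca were still alike (0.929). Acacb was then negative with all other members, from -0.833 (Pnpla3) to -0.0916 (Thrsp). Elovl6 ran from -0.285 (Scd1) to 0.786 (Thrsp). Genotypes, times and library scaling are shared by all genes in these libraries, so the values are descriptions.

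Over the 14421 genes expressed in these libraries, the non-members most like Fasn included Pstpip2 (r = 0.836), Acss3 (0.817), Pklr (0.810) and Kalrn (0.799). The 5 non-members most like Thrsp were Cyb5r3 (0.866), Cyp2j6 (0.861), Tlcd2 (0.848), Mkln1 (0.840) and Slc9a3r1 (0.835). No gene was on both lists.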

How the data were processed

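Whole-liver polyA RNA of 24 libraries was sequenced, and the authors trimmed the reads, ran STAR against mm10 and deposited read counts per gene that were not normalized. The unstranded counts were used, since counts on either strand were near equal (50.1% to 50.8%). No column was left unmapped. Counts were tested with edgeR 4.0.16 (quasi-likelihood, filterByExpr, TMM, R 4.3.3), with Benjamini-Hochberg adjustment over all genes tested; genes were called at an adjusted p under 0.05 and at least 1.5-fold. DESeq2 1.42.0 was an alternative. CPM were scaled by TMM over 24 libraries, log2 values used a prior count of 2, and RPKM used exon lengths of GENCODE vM21, matched by symbol. Fits were tested on simulated data. Intervals cover the spread between samples, and counting error sets the floor of 3 reads.

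Members and lists were chosen with earlier results of these data known. Named besides the members were called genes of the lists, at most 5 per list and comparison by size of change, E2f7, E2f8, Mid1ip1, and the 5 genes most alike to Thrsp and to Fasn; Pklr, Mlxipl, Car3 and the values of uncalled genes were added after they were seen. Some genes that this rule names are not reported here. For members in HKO livers no p is given, although the calls counted there rest on the adjusted p of the fit and describe only. Labels mention 4 mice per genotype at 0 h; 3 of each were analysed here for the first cohort. Promoters were from RefSeq.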

Additional observations from a re-analysis of the deposited data

How the results depend on the processing

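Of 1715 recomputed fold changes of single members, 26 changed sign under another setting and 54 when a library was left out; the cause was not tested. Members called in HKO livers numbered 2 by DESeq2 and 2 with the replicate block, Thrsp and Acacb each time. After APAP between genotypes they numbered 1 under library size only, 1 with at least 10 counts in every library, 5 by DESeq2 and 0 without the time block. At 24 h against 0 h, library size only called 2. Against 0 h, DESeq2 called 5 at 24 h and 3 at 96 h, control libraries alone gave 0 at 12 h, 1 at 24 h and 1 at 48 h, and at 96 h LKO libraries alone and no filter beyond 1 count gave 2 each. Leaving out 1 library gave 1 to 2 in HKO livers (2 without HKO mouse 1), 0 to 0 in LKO at 0 h, 0 to 2 between genotypes after APAP, 0 to 2 at 12 h, 0 to 5 at 24 h, 0 to 0 at 48 and 72 h and 0 to 2 at 96 h (Fasn and Elovl6 without either 48 h pool).

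In HKO livers signs changed for Acly (0.064) and Me1 (0.055) by library size, Me1 (0.0050) on 1 strand, and Me1 (0.013) and Srebf1 (-0.057) with the replicate block. They changed for Acacb (0.079, library size only) and Scd1 (-0.002301, no filter) in LKO at 0 h. Against 0 h in control libraries alone they changed for Acaca (-0.093) and Fasn (-0.29) at 12 h, Me1 (0.082) at 24 h, Acly (-0.15) at 48 h, Acly (-0.54) and Thrsp (-0.72) at 72 h and Me1 (-0.28) at 96 h. In LKO libraries alone they changed for Acacb (0.54) and Elovl6 (0.22) at 48 h, and at 72 h for Me1 (0.071), Acaca (0.12), Acacb (0.39), Fasn (0.27), Elovl6 (0.48) and Srebf1 (0.27). Counting 1 strand changed Pnpla3 at 12 h (0.048) and Acly at 48 h (-0.038), no filter Acly at 48 h (-0.00372), and library size only Me1 at 24 h (0.080).

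Leaving out 1 library, log2 fold changes that crossed 0 ran in HKO livers from -0.11 to 0.10 for Acly, -0.19 to 0.22 for Me1, -0.087 to 0.18 for Elovl6, -0.58 to 0.25 for Scd1 and -0.50 to 0.26 for Srebf1, in LKO at 0 h from -0.019 to 0.10 for Acly, -0.26 to 0.13 for Acacb, -0.31 to 0.025 for Elovl6 and -0.25 to 0.44 for Scd1, and between genotypes after APAP from -0.23 to 0.29 for Srebf1. At 12 h they ran from -0.065 to 0.24 for Fasn and -1.22 to 0.037 for Pnpla3, at 24 h from -0.45 to 0.0056 for Acly and -0.49 to 0.27 for Me1, and at 48 h from -0.048 to 0.060 for Acly and -0.74 to 0.16 for Acacb. At 72 h they ran from -0.47 to 0.79 for Acly, -0.60 to 0.0029 for Acaca, -0.92 to 0.015 for Acacb, -0.98 to 0.25 for Elovl6, -0.78 to 0.38 for Srebf1, -0.79 to 0.76 for Thrsp and -0.10 to 1.41 for Pnpla3, and at 96 h from -0.22 to 1.24 for Me1.

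Over all genes, calls in HKO livers numbered 119, against 255 with no filter, 331 by DESeq2 and 263 with the replicate block. Between genotypes after APAP there were 74, against 337 with no filter, 606 by DESeq2, 34 with at least 10 counts, 42 by library size (30 higher, 12 lower, against 32 and 42) and 0 without the time block. At 96 h there were 64, against 338 by DESeq2 and 41 by library size. Leaving out 1 library, these counts ran from 54 (without AAV8-TBG-Null mouse 1) to 297 (without HKO mouse 1) in HKO livers, and from 8 (without either 12 h pool) to 145 (without either 96 h pool) between genotypes after APAP, with 10 to 21 without any other pool. At 96 h they ran from 7 (without its LKO pool) to 113 (without the control pool of 12 h). Without its control pool, 12 h fell from 4299 to 2151, 24 h from 3549 to 1583 (1177 without its LKO pool), 48 h from 2274 to 507 and 72 h from 2327 to 514. Shares printed beside member counts move alike. Library size alone shifted the median of all genes by 0.13 in LKO at 0 h and by 0.134, 0.191 and 0.101 at 24, 48 and 72 h, where it called 2509 higher and 1116 lower, 2201 and 496, and 1738 and 415 (by TMM 1928 and 1621, 1370 and 904, 1527 and 800). In HKO livers it called 76 higher and 58 lower, against 52 and 67. Same-numbered mice correlated at 0.198, -0.0307 and 0.105 in the first cohort and from -0.379 to 0.223 in the second. Differently numbered mice correlated from -0.201 to 0.127 and from -0.466 to 0.478. So few pairs cannot show whether numbers pair mice, and the main fits left the block out. With the block, 0 members were called in LKO at 0 h. Pools limit single times, and low counts limit Pnpla3.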
